A study of Equus caballus with 4 samples.

Results

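The myogenic regulatory factors *MYF5*, *MYOD1*, *MYOG* and *MYF6*, 3 factors of the MEF2 family (*MEF2A*, *MEF2C* and *MEF2D*) and the E proteins encoded by *TCF3* and *TCF12* were examined in equine satellite cells (SC) exposed to gamma-oryzanol (GO), a mixture of plant sterol ferulates from rice bran. Members were the noncontrol probes whose gene name in the array files equals 1 of these 9 symbols, which gave 21 of the 43603 noncontrol probes and 8 of the 9 genes. No probe carried the name *MEF2D*, but 1 probe named only by its transcript is described in the files as myocyte enhancer factor 2D. Its values are given beside those of the members and it was not counted among them. All 21 member probes were tested, each had 1 spot on an array, and 5 of the 8 genes had more than 1 probe.

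SC were isolated from semitendinosus muscle of colts aged 6 months, expanded, and switched to differentiation medium. At 48 h of differentiation the treated cells received 125 nM GO in DMSO for 24 h, and the control cells received the same amount of DMSO (0.04 μl/ml), so both groups were at day 3 of differentiation and both carried the vehicle. On each of 4 arrays of 1 slide, cRNA of GO-treated cells labeled with Cy5 and cRNA of control cells labeled with Cy3 were hybridized together, without a dye swap, so that dye and GO cannot be told apart for any probe. The labels call the arrays biological replicates, whereas the methods describe isolation from 6 horses and then the choice of the best cell line, so the p-values measure the spread between these 4 arrays, which may come from separate cultures of 1 line.

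Myogenic regulatory factors are basic helix-loop-helix proteins that switch on muscle genes. They bind DNA at E-boxes as dimers with ubiquitous E proteins, and MEF2 factors bind near them and act with them on the same genes. In the common order of events, *MYF5* and *MYOD1* commit cells to the muscle lineage, *MYOG* is switched on as they exit the cell cycle and fuse, and *MYF6* is most abundant in maturing fibers.

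The probes are printed here for the genes in which probes of 1 gene can be compared, with positions on EquCab1 as given in the files. Of the 6 *MYF5* probes, 5 start 1 base apart and share 56 bases, and all 5 hold a stop triplet in each reading frame. The first 30 shared bases (chr28:7932543-7932572, plus strand) are shown with the first such triplet of each frame in capitals. The other *MYF5* probe, which was the brightest, starts 68 to 72 bases downstream of these starts and shares no base with them. Whether a probe lies in a coding or an untranslated part was not analysed here, since the annotation of this build was not used.
MYF5, stretch shared by 5 probes: tgtgctaTGAacTAAaaatcTAGtctagat

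The 2 *MYOG* probes (minus strand of chromosome 30, from 20042033 to 20042092 and from 20042018 to 20042077) are shown because they overlap. Capitals mark the 45 bases they share.
MYOG, probe A_69_P126431: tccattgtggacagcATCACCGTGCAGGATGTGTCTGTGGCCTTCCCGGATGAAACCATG
MYOG, probe A_69_P008901: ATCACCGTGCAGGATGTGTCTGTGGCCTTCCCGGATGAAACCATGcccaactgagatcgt

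The *MYOD1* and *MEF2C* probes are shown because the 2 probes of each gene have no base in common. On the plus strand of chromosome 7 the *MYOD1* probes start 1753 bases apart, at 73781068 and 73782821. On the plus strand of chromosome 14 the *MEF2C* probes start 9404 bases apart, at 78073853 and 78083257, and the first of them spans 647 bases of the genome with 60 bases of sequence. The first 30 bases are given for the downstream probe of each gene. Capitals mark the first stop triplet of each frame that holds one.
MYOD1, upstream probe A_69_P124376: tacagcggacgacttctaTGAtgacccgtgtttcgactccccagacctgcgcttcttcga
MYOD1, downstream probe A_69_P003216: accgcgcttTAAaagcgacccatcccgagg
MEF2C, upstream probe A_69_P122221: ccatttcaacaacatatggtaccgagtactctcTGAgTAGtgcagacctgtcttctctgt
MEF2C, downstream probe A_69_P063396: gtcgattcatctccaaccatatgcatTGAc

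The log2 ratio, GO over control on the same array, had a negative mean for all 21 member probes. The thresholds were 0.05 for the adjusted p (limma, two-sided, Benjamini-Hochberg adjustment over 26832 probes) and 1.3 for the fold change, or 0.38 for the size of the log2 ratio, and a probe past both was called lower or higher. By this rule 8 of the 21 member probes were lower in GO-treated cells and 0 were higher, beside 5.61% of all tested probes lower and 3.33% higher. Over all probes these calls were 1505 lower and 894 higher, but 1650 lower and 1740 higher when each array was only centered on its median, without lowess. The 8 were the 6 *MYF5* probes, 1 *MYOG* probe and 1 *MEF2C* probe. The 21 hold 5 *MYF5* probes and 5 *TCF3* probes that share 56 bases within each gene, so these counts are not of independent measurements. By the brightest probe of each gene, 2 of the 8 genes were lower, *MYF5* and *MYOG*, beside 5.42% of 9406 genes. *MEF2C* is not among them by a narrow choice, since its 2 probes were almost equally bright and the less bright was called lower. A probe is called detected where the files mark it as well above background. The median log2 ratio of all tested probes was 0.00. In RNA of a whole culture, fewer cells of a type and less RNA per cell cannot be told apart.

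**Figure D1:**
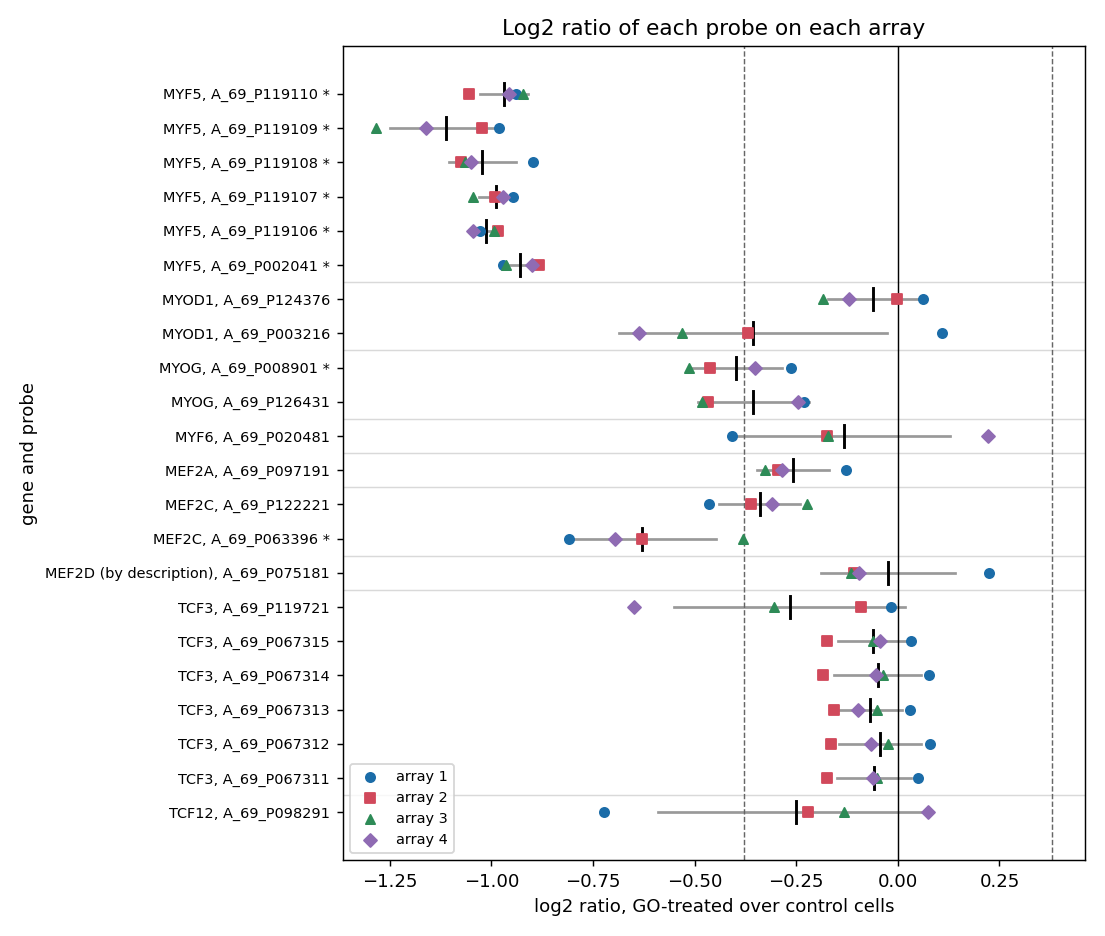
Log2 ratio, GO over control (x axis), for each member probe and the probe described as MEF2D (y axis), with 1 symbol for each of the 4 arrays, a black tick at the mean and a gray bar of 1 SD to each side. Dashed lines mark the fold change of 1.3 in either direction and an asterisk a probe past both thresholds. All *MYF5* points lie between -1.28 and -0.88, whereas the points of *MYOD1*, *MYF6* and *TCF12* lie on both sides of 0.

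*MYF5*, which marks commitment to the muscle lineage, had the lowest log2 ratios of the group. The processed signal of its brightest probe (A_69_P002041, chr28:7932611-7932670, plus strand) was 455, 337, 450 and 353 in control cells on arrays 1 to 4. In GO-treated cells it was 232, 183, 230 and 189. All 4 GO signals were below all 4 control signals, which was the case for 5.39% of all tested probes. The log2 ratio was -0.97, -0.88, -0.96 and -0.90, with a 95% confidence interval of the mean from -1.06 to -0.80, so that GO-treated cells had 52.5% of the control signal. The 5 overlapping probes had mean log2 ratios from -1.11 to -0.97 and SDs from 0.03 to 0.14, and their GO and control signals did not overlap either. Between 0.555 and 0.816% of all tested probes had a lower mean log2 ratio than a *MYF5* probe. The brightest probe was the least negative of the 6, above the others by 0.04 to 0.18 on the log2 scale, and it was above A_69_P119106 and A_69_P119109 on all 4 arrays. The 5 overlapping probes read nearly the same bases and are not independent measurements.

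*MYOD1*, the other commitment factor, had 2 probes that gave different values. The signal of the downstream probe was 142, 207, 155 and 154 in control cells and 153, 161, 107 and 99.3 in GO-treated cells. It was higher with GO on array 1 and lower on the other 3, and the groups overlapped. The signal of the upstream probe (chr7:73781068-73781127) was 93.8, 142, 87.2 and 98.7 in control cells and 98.0, 142, 76.8 and 90.8 in GO-treated cells, so that each array differed by little. The mean log2 ratio of this probe was -0.06 ± 0.11 (SD, n = 4; limma, adjusted p = 0.546). The downstream probe had the wider 95% interval, from -0.65 to -0.06 without adjustment, and did not reach the adjusted threshold (0.0905, limma), but passed both thresholds without array 1 (-0.51, adjusted p = 0.0204) and with array weights (-0.41, adjusted p = 0.0290). The downstream minus the upstream value was -0.30 ± 0.24 (SD, n = 4), ranging from -0.52 to 0.05, and was negative on 3 of 4 arrays.

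*MYOG*, the differentiation factor, was lower on all 4 arrays with both probes, which share 45 bases. Of all tested probes, 21.5% were lower on all 4 arrays. The control signal of the brightest probe was 1264, 1481, 1111 and 867, and the GO signal was 1054, 1076, 779 and 679. The groups overlapped, although each array on its own was lower with GO. GO-treated cells had 75.9% of the control signal, and the 95% interval of the log2 ratio, from -0.55 to -0.24, held the threshold of -0.38. The overlapping probe gave -0.23, -0.47, -0.48 and -0.24 and reached the threshold for the adjusted p (0.0208, limma), as 18.1% of all tested probes did, but not that for the fold change. The 2 probes differed by 0.04 on the log2 scale, with an SD of 0.05. *MYOG* passed both thresholds by the brightest probe but not by the median of its 2 probes (-0.38, fold below 1.3).

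*MYF6*, the factor of maturing fibers, had 1 dim probe (chr28:7922475-7922534, plus strand), which starts 10064 bases before the first *MYF5* probe on the same strand. Its sequence is shown because it ends in a short stretch past a stop triplet, in capitals.
MYF6, probe A_69_P020481: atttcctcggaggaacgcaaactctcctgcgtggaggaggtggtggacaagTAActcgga

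The *MYF6* signal was 41.2, 36.3, 38.1 and 32.9 in control cells and 31.0, 32.1, 33.8 and 38.4 in GO-treated cells. It was lower on 3 arrays and higher on array 4. The log2 ratio of -0.13 ± 0.26 (SD, n = 4; limma, adjusted p = 0.398) had a 95% interval from -0.38 to 0.11. The value of *MYF5* lay outside this interval, which leaves out the spread of *MYF5* and is not a test of the difference.

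**Figure D2:**
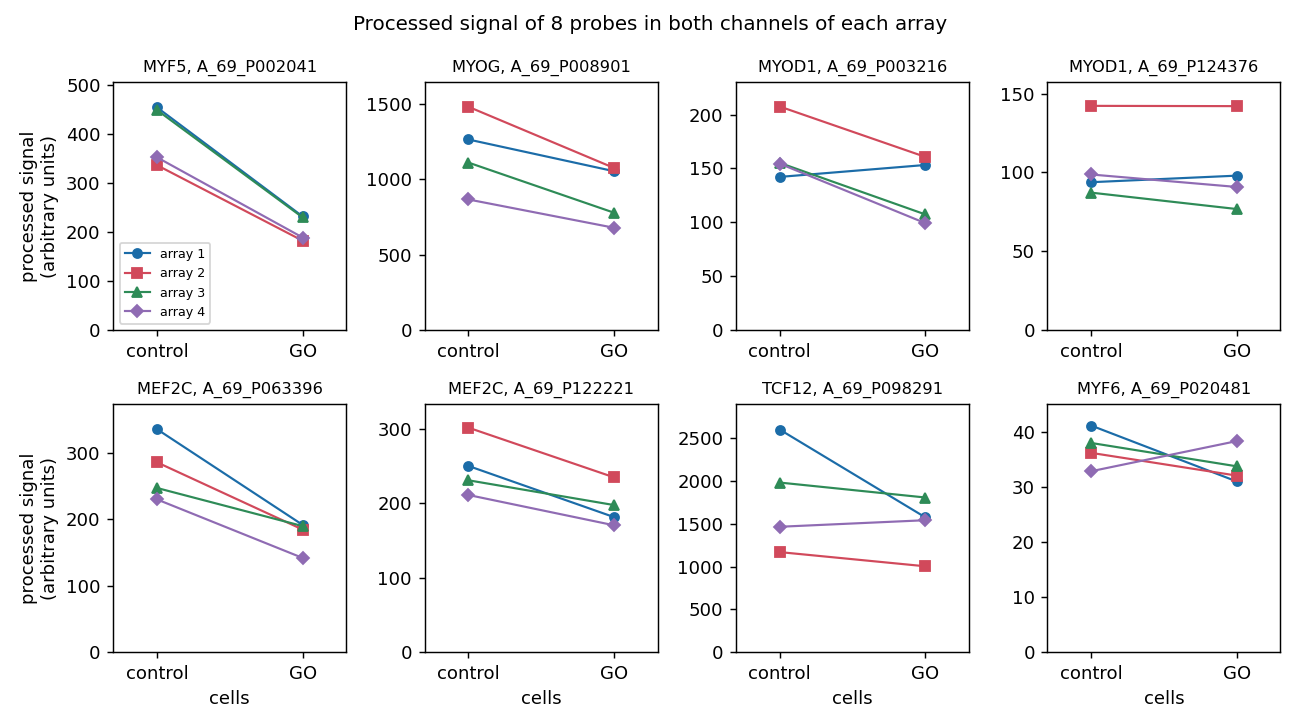
Processed signal in arbitrary units (y axis, from 0, with a scale of its own in each panel) in control and GO-treated cells (x axis) for 8 probes, with 1 line for each of the 4 arrays. The *MYF5* lines fall together, from 337 to 455 in control cells to 183 to 232 with GO, whereas the lines of *MYOD1* probe A_69_P003216, *TCF12* and *MYF6* differ in direction between arrays.

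The difference between *MYF5* and each other gene was taken on each array from the brightest probes. *MYF5* had the lower log2 ratio on 4 of 4 arrays in all 7 comparisons. The mean difference was smallest from *MYOG*, at -0.53 ± 0.13 (SD, n = 4), and largest from *TCF3*, at -0.87 ± 0.13. It was -0.57 from *MYOD1*, -0.59 from *MEF2C*, -0.67 from *MEF2A*, -0.68 from *TCF12* and -0.80 from *MYF6*. The exact sign-flip permutation test, two-sided, gave p = 0.13 for each, also after adjustment over the 7, which is the smallest p that 4 arrays allow, so this test could not reach 0.05. In the order of mean log2 ratio, the neighbors after *MYF5* were *MYOG* (-0.40), *MYOD1* (-0.36), *MEF2C* (-0.34), *MEF2A* (-0.26), *TCF12* (-0.25), *MYF6* (-0.13) and *TCF3* (-0.06). Each step in this order other than the first was smaller than the SD of at least 1 of the 2 genes. The place of *MEF2C* depends on its probe, since its 2 probes were almost equally bright (mean log2 signal 7.775 and 7.77). By the less bright, downstream probe *MEF2C* had -0.63, which comes before *MYOG* and is the nearest to *MYF5*.

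Of the MEF2 factors, *MEF2C*, the first of the family to be expressed in developing muscle, was lower with both probes. The control signal of the downstream probe was 335, 286, 247 and 230, and the GO signal was 191, 184, 190 and 142. These groups did not overlap. The log2 ratio was -0.81, -0.63, -0.38 and -0.70, with a mean of -0.63 ± 0.18 (SD, n = 4; limma, adjusted p = 0.00622) that 2.22% of tested probes were below. The upstream probe had a control signal of 250, 302, 231 and 211 and a GO signal of 182, 235, 198 and 171. Its log2 ratio was -0.34 ± 0.10 (SD, n = 4; limma, adjusted p = 0.0173), below the fold change threshold. The upstream probe was above the downstream probe by 0.29 ± 0.10 on the log2 scale, and on all 4 arrays (0.16 to 0.39). The gene was therefore not past both thresholds by its brightest probe, and was past both by the median of its 2 probes (-0.48, adjusted p = 0.00825, limma). The upstream probe was the brightest by a small margin, with a mean log2 signal of 7.775 beside 7.77 for the downstream probe.

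*MEF2A*, which is expressed in many tissues, had 1 probe (chr1:102349413-102349472, plus strand). Its control signal was 750, 565, 554 and 476, and its GO signal was 687, 460, 442 and 391. The signal was lower with GO on all 4 arrays, although the groups overlapped, and 21.5% of tested probes were lower on all 4. The log2 ratio of -0.26 ± 0.09 (SD, n = 4) had an adjusted p of 0.0339 and was below the fold change threshold.

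The probe described as MEF2D (A_69_P075181), placed on unassembled sequence, had a control signal of 123, 177, 132 and 113 and a GO signal of 143, 164, 122 and 106. It was higher with GO on array 1 and slightly lower on the other 3. The mean log2 ratio was -0.02, with a 95% interval from -0.21 to 0.16 and an adjusted p of 0.859 (limma).

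Of the E proteins, *TCF3* (E2A) had 6 probes, of which 5 overlap on unassembled sequence and share 56 bases. The brightest had a control signal of 1096, 1068, 1080 and 936 and a GO signal of 1135, 947, 1042 and 897. It was higher with GO on array 1 and lower on the other 3. The 5 probes lay between -0.07 and -0.04 on the log2 scale, with adjusted p-values from 0.449 to 0.659 (limma). For the brightest the 95% interval ran from -0.21 to 0.09. The sixth probe (A_69_P119721), 1050 to 1054 bases upstream of these, was dim, with a signal of 22.3 to 29.7 in control cells and 14.2 to 27.9 in GO-treated cells. With GO it was detected on 2 arrays, and the mean log2 ratio was -0.27 ± 0.28 (SD, n = 4; limma, adjusted p = 0.136).

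*TCF12* (HEB) had 1 bright probe (chr1:131262369-131262428, minus strand). Its control signal was 2601, 1170, 1982 and 1466, and its GO signal was 1575, 1004, 1807 and 1542. Array 1 had the largest fall and array 4 a small rise, with log2 ratios of -0.72 and 0.07. The mean of -0.25 ± 0.34 (SD, n = 4; limma, adjusted p = 0.203) became -0.09 without array 1, the array on which the downstream *MYOD1* probe went the other way.

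**Figure D3:**
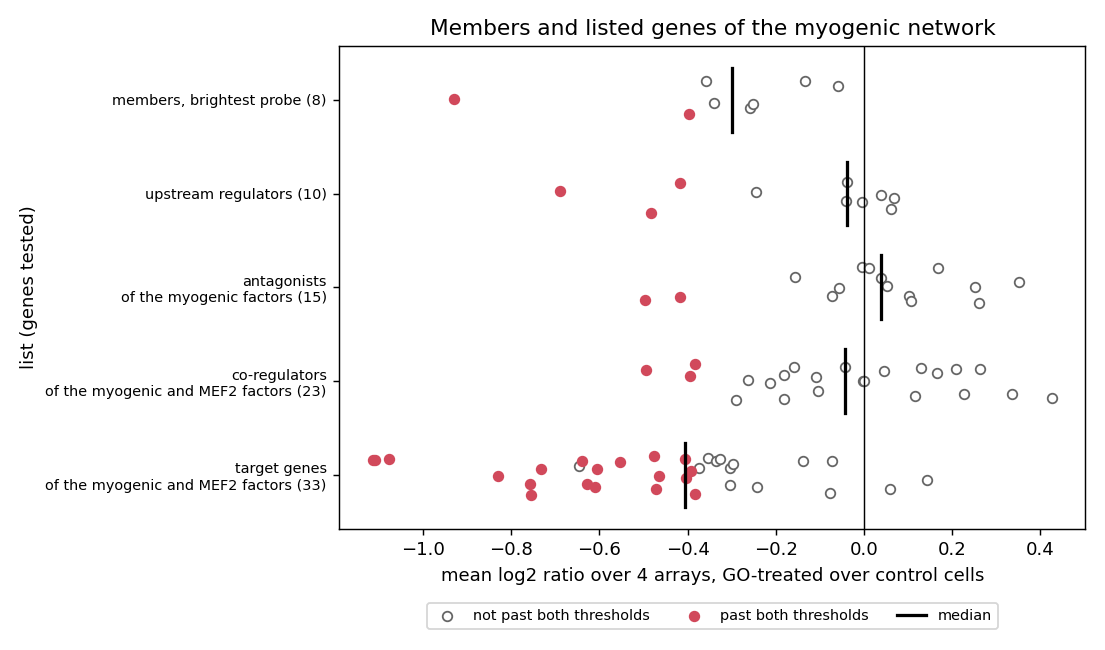
Mean log2 ratio over 4 arrays, GO over control (x axis), for the 8 member genes and for 4 lists of genes that act with them (y axis, with the number of genes tested), where each point is the brightest probe of a gene, filled points are past both thresholds and a black line is the median. The median of the target genes is -0.41, and those of the upstream regulators, antagonists and co-regulators lie between -0.04 and 0.04.

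Genes that act with these factors were taken from 4 lists, and 10 upstream regulators of the myogenic factors were tested, of 16 listed. Lower in GO-treated cells were 3 of them and higher 0, with a median log2 ratio of -0.04, beside 5.42% of all genes lower and 3.33% higher. Among the 3 were *SIX4*, a homeobox factor that acts on myogenic genes, at -0.48 ± 0.13 (SD, n = 4; limma, adjusted p = 0.00788), and its cofactor *EYA1*, at -0.42 ± 0.16 (limma, adjusted p = 0.0163). With GO, *EYA1* was detected on 3 arrays, so that it passed the filter through the control channel alone. With both channels required, 5 genes of the list were tested and 1, *SIX4*, was lower. After normexp background correction and loess, 0 of the 10 passed both thresholds, and *SIX4* and *EYA1* had -0.25 and -0.13. *EYA1* also missed a threshold without array 2, 3 or 4. *PAX7*, the marker of quiescent SC, had no probe under its name.

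Of 23 listed antagonists of the myogenic factors, 15 were tested, 2 were lower and 0 higher, beside 5.42% and 3.33% of all genes, with a median of 0.04. The 2 were *NR2F2*, an orphan nuclear receptor, at -0.50 ± 0.03 (SD, n = 4; adjusted p = 0.00443, limma) with 4 of 4 probes past both thresholds, and *ZEB2*, a repressor that binds E-boxes, at -0.42 ± 0.19 (adjusted p = 0.0206). *ZEB2* did not pass without array 1, 2 or 3. The symbol *STRA13* in this list has been used for more than 1 gene and is 1 of the 15.

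Of 33 listed co-regulators, 23 were tested, 3 were lower and 0 higher, beside 5.42% and 3.33% of all genes, with a median of -0.04. They were *CCND3*, a cyclin that accumulates as myoblasts exit the cell cycle, at -0.49 ± 0.30 (SD, n = 4; adjusted p = 0.0321, limma), *TEAD4*, a factor that binds muscle gene promoters, at -0.40 ± 0.23 (adjusted p = 0.0337), and the calcium-dependent kinase *CAMK2D*, at -0.38 ± 0.06 (adjusted p = 0.00905). Of the 3 *CAMK2D* probes 2 were past both thresholds, with means from -0.44 to -0.18, and the median of its probes (-0.35) was not. Without array 2 or array 4, 0 of the 23 genes passed both thresholds, and without array 3, 1 did. After each array was only centered on its median, without lowess, 1 of the 23 passed.

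Of 45 listed target genes of the myogenic and MEF2 factors, 33 were tested, and 19 of them were lower and 0 higher, beside the 5.42% of all genes that were lower. The median was -0.41, and 31 of the 33 means were below 0. In the deposited ratios the lowest were *MYH2*, *NES* and *MYH8* (adult fast myosin, nestin and perinatal myosin), at -1.11 ± 0.33, -1.11 ± 0.58 and -1.08 ± 0.43 (SD, n = 4). These were followed by *MYH3* (embryonic myosin), *FGFR4*, the Notch ligand *DLL1*, *MYH7* (slow myosin) and *ACTA1* (skeletal actin), from -0.83 to -0.64, and the adjusted p of these 8 genes ran from 0.00338 to 0.0165 (limma). With GO, *MYH2* was detected on 3 arrays and *FGFR4* on 2, so that both passed the filter through the control channel alone. The list was written with earlier results of these data known, and its count is not independent evidence of a direction.

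The values of the target genes depended on how the signals were normalized. With centering on the median and no lowess, 11 were lower and 1, *ACTC1* (cardiac actin, -0.33 in the deposited ratios), was higher, and the median was -0.29. *MYH3*, *MYH7* and *ACTA1* then had log2 ratios of -0.15, -0.19 and -0.08 and did not pass, whereas *MYH2*, *NES*, *MYH8* and *DLL1* had -1.23, -1.13, -1.07 and -0.77 and *MYF5* had -0.94. After normexp and loess 17 targets were lower and 0 higher, the median was -0.39, and *MYF5* had -0.69. *MYH2* then had -0.39, behind *NES* (-0.92), *MYH8* (-0.83), *MYH3* and *MYH7* (both -0.60), and *FGFR4* had -0.26 and did not pass the fold change.

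Markers of the cell types that such a culture can hold were also examined. All 17 tested markers of the muscle lineage were detected in both channels on every array. Each of the 17 is a member or a listed target gene, so their counts are not a further result. Lower in GO-treated cells were 10 of them and higher 0, *MYF5* and *MYOG* included, beside 5.42% and 3.33% of all genes. With centering on the median and no lowess, 3 were lower and 1, *ACTC1*, was higher, and 4 were lower without a filter, 1 with the plain one-sample test and 7 to 15 with an array left out. Their summed signal was 356329 to 473277 in control cells and 232958 to 333516 in GO-treated cells, which do not overlap. Of single tested probes, 5.39% had all GO signals below all control signals, and the share for sums of other genes was not taken. Such a sum weighs the brightest probes most. It was taken on the processed signals after lowess and was not taken without lowess. Of 12 fibroblast markers, 0 were lower and 1, *PDGFRA*, was higher (0.87 ± 0.48 (SD, n = 4); adjusted p = 0.0199, limma), and their summed signal overlapped, with 358723 to 566699 in control cells and 402301 to 549979 in GO-treated cells. *PDGFRA* did not pass after normexp and loess, when *COL1A2* and *S100A4* were higher, nor without a filter, with the plain test, with the channels as separate samples or without array 2. With centering on the median and no lowess, 5 fibroblast markers were higher and 1 lower. Also lower was 1 when both channels had to be detected, with array weights, or by the median of a gene's probes. In the deposited ratios 2 of 4 *POSTN* probes (-0.51 to 0.10) and 2 of 9 *COL1A2* probes (-0.42 to -0.05) were lower. Of 2 *DCN* probes (0.04 to 0.42), 1 was higher. The brightest *POSTN* probe had -0.47 (adjusted p = 0.0512, limma). Of the leukocyte markers 4 of 12 on the array passed the filter, and *CD74* was lower at -2.23 ± 0.46 (adjusted p = 0.00157). *CD74* was detected with GO on 3 arrays and passed the filter through the control channel alone, and with both channels required, 3 leukocyte markers were tested and 0 passed both thresholds. Of the smooth muscle markers 5 passed the filter and 1, *DES*, which skeletal muscle also expresses, was lower. With centering on the median and no lowess, 0 of the 5 were lower and 1, *TAGLN*, was higher. None was lower without a filter, with the plain test, with the channels as separate samples or without array 2. No marker of adipocytes (6 on the array) or of endothelium (5 on the array) passed the filter. The part of the cell makeup in the values of the myogenic factors was not tested.

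The genes with the log2 ratios most like those of *MYF5*, *MYOD1* and *MYOG* over the 4 arrays were taken among 9398 other genes by the root mean square distance. For *MYF5* they were *GAREM* (distance 0.10 on the log2 scale), *TGFB2* (0.10) and *INOS* (0.12), with means of -0.92, -0.84 and -0.99. For *MYOD1* they were *CHRNG*, the fetal subunit of the acetylcholine receptor, *PKN3* and *TMEM44*, all at a distance of 0.04 and all above 0 on array 1 and below 0 on the others. For *MYOG* they were *NRAP*, *HSPA4L* and *SYNC*, at 0.04, 0.04 and 0.05, and all 3 were lower on all 4 arrays. The distances are given as a description, and the shared signs follow from the choice of the nearest genes.

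**Figure D4:**
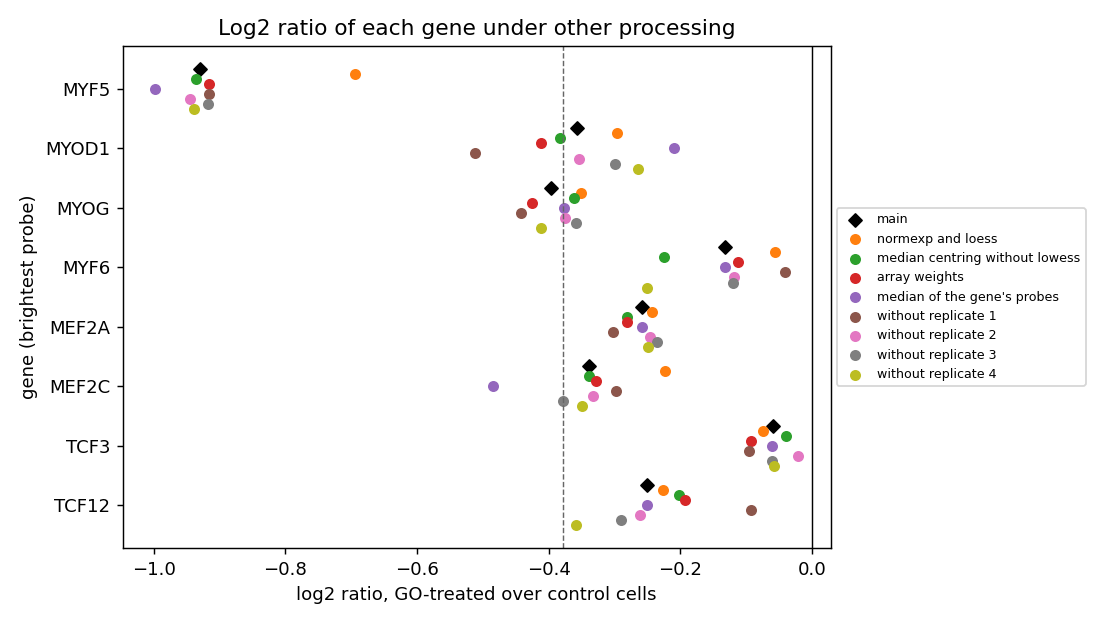
Log2 ratio, GO over control (x axis), for the brightest probe of each member gene (y axis) as deposited (black diamonds) and under 8 other ways to process the ratios or choose arrays and probes (colored points). The dashed line marks a fall of 1.3-fold. *MYF5* lies between -0.998 and -0.69 in all of them, while the points of *MYOG* lie on both sides of the line.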

How the data were processed

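The authors hybridized and scanned 4 horse arrays and processed them with Feature Extraction (version 10.10.1.1 per the file headers). For each channel, the authors deposited intensity values as raw, background-subtracted and processed signals, and the deposited log10 ratios are processed Cy5 (GO) over Cy3 (control) after linear and lowess dye normalization. The authors' series table held the same log10 ratios (180880 of 180880 values). Ratios were multiplied by log2 of 10, and control spots and the 10 to 19 outlier spots of each array were dropped. Probes detected (well above background) on all 4 arrays with GO, or on all 4 with the vehicle, were tested, which held for 26832 of 43603 probes. Of the noncontrol spots of an array, 63.5 to 68.9% were detected in control cells and 57.4 to 67.0% in GO-treated cells, and the number of arrays limits the precision. The ratios of all tested probes were fitted with limma (version 3.58.1, R version 4.3.3, intercept alone, eBayes), after a test on simulated data. Intervals of means are 95% intervals from this fit.

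The ratio within an array pairs the channels. Deviations from the group means correlated at 0.48 to 0.86 within an array and at -0.54 to 0.24 between arrays. Both channels of an array share a hybridization, and deviations from a group mean cancel out over the arrays. These values therefore cannot show whether the cultures were paired. All members were named, of each list every gene past both thresholds up to the 8 largest, and 3 nearest genes for *MYF5*, *MYOD1* and *MYOG*. The result of 1 listed gene is not reported here. For genes, the brightest probe by mean log2 signal of both channels was used. Probe names come from the files or, for 1684 probes, from RefSeq (TB-T2T). Alternatives were normexp (offset 50) with loess, median centering without lowess, no filter, both channels above background, a plain one-sample test, array weights, channels as separate samples, the series table, the median of a gene's probes, and each array left out. The members and lists were chosen with earlier results of these data known.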

Additional observations from a re-analysis of the deposited data

Results flagged for a closer look

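For 3 of the 38 sets of 4 log2 ratios examined for a sample far from the others, the gap between 1 array and its nearest neighbor, as a share of the whole range, was above Dixon's 95% critical value, and chance gives about 1 in 20. For the probe described as MEF2D this share was 0.942, since array 1 had 0.22 and the other arrays -0.11, -0.11 and -0.09. For *MYF5* probe A_69_P119108 it was 0.852, with -0.90 on array 1 and -1.08, -1.06 and -1.05 on the others, all of which were below the threshold of -0.38. For *SIX4* it was 0.870, with -0.29 on array 2 and -0.55, -0.53 and -0.56 on the others.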

How the results depend on the processing

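*MYF5* kept its direction and passed both thresholds by its brightest probe under all 13 alternatives, from -0.998 to -0.69. Of the 13, the series table holds the same ratios and could give no other result. *MYF5* probe A_69_P119109 did not pass with the plain one-sample test (adjusted p = 0.0504). All probes past both thresholds numbered 2399. This became 1297 after normexp and loess, 908 without a filter, 147 with the plain one-sample test, and 1566 to 2430 with each array left out. After median centering it was 3390, with 1740 higher and 1650 lower. Member probes past both numbered 8, 5 with the plain test and 7 to 10 with an array left out. Member genes past both numbered 2, and 1 after normexp and loess, after median centering, without a filter and with the plain test, and 1 to 3 with an array left out (1 without array 2 or 3). *MYOG* accounted for this: -0.35 after normexp and loess, -0.36 after centering, -0.40 without a filter (adjusted p = 0.0536) and with the plain test (adjusted p = 0.0830), -0.38 by the median of its probes, and -0.44 to -0.36 with an array left out. *MYOD1* passed with array weights (-0.41) and ran from -0.51 to -0.26 with an array left out, and *MEF2C* passed by the median of its probes (-0.48). With the channels as separate samples, without the pairing by array as a block, 370 probes and 1 member gene, *MYF5*, passed (*MYOG* -0.40, adjusted p = 0.493), with 0 upstream regulators, 0 antagonists, 0 co-regulators and 5 targets.

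The 3 upstream regulators became 0 after normexp and loess and with the plain test, 1 without a filter and with both channels above background, and 1 to 3 with an array left out. The 2 antagonists became 1 after normexp and loess, without a filter and with the plain test, and 1 to 3 with an array left out. The 3, without array 4, were 2 lower and 1 higher, *BHLHE40*. The 3 co-regulators became 1 after centering and without a filter, 0 with the plain test, and 0 to 3 with an array left out. The 19 targets became 12 after centering, 9 without a filter, 2 with the plain test, and 16 to 24 with an array left out. The downstream *MEF2C* probe did not pass without a filter (adjusted p = 0.0543), with the plain test (adjusted p = 0.0846) or without the block (adjusted p = 0.0911). The probe described as MEF2D changed sign, to 0.00484, 0.00735 and 0.000759 without array 2, 3 and 4, and was -0.11 without array 1. The cause of these changes was not tested. The dim *MYF6* probe and *TCF3* probe A_69_P119721, with signals of at most 41.2 in both channels, were the members nearest to background.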

Other observations

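Values of some listed genes that did not pass both thresholds were picked after they had been seen, as relatives of the members. The third E protein, *TCF4*, had a log2 ratio of -0.11 ± 0.08 (SD, n = 4) by its brightest probe, and its 4 probes lay between -0.13 and -0.10. *PAX3*, which acts upstream of *MYF5* in the embryo, had 0.07 ± 0.19 and was detected with GO on 2 arrays. The class IIa deacetylases, which bind MEF2 factors and repress their targets, had 0.21 ± 0.18 (*HDAC5*), 0.11 ± 0.15 (*HDAC7*) and 0.13 ± 0.43 (*HDAC9*). *ID2* and *ID3*, which bind E proteins and keep them from the myogenic factors, had 0.17 ± 0.15 and 0.10 ± 0.17. For each of these genes the adjusted p from limma was above 0.05, the lowest being 0.116 for *HDAC5*. Not among these picks, the antagonists *HEY1* and *BHLHE40* had 0.26 ± 0.13 and 0.35 ± 0.23. Their adjusted p-values were 0.0448 and 0.0480 (limma), and both were below the fold change threshold. Of the 15 antagonists tested, 6 had a mean below 0.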
